A study of Mus musculus with 6 samples.

Results

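The genes described here are the chains of the IL-4 receptor, the Janus kinases (JAKs) that bind them, and the STAT transcription factors that the JAKs act on. They were taken as a list of 10 genes, *Il4ra*, *Il2rg*, *Il13ra1*, *Jak1*, *Jak2*, *Jak3*, *Tyk2*, *Stat3*, *Stat5a* and *Stat6*, by the gene symbol of each array probe. Of these, 9 had a named probe and were tested, by 17 probes in all, among 8921 tested genes and 16071 tested probes, and *Il2rg* was not analysed here. The tested cells were bone marrow-derived dendritic cells (BMDCs) of 3 C57BL/6 male mice, grown for 10 days with 20 ng/ml GM-CSF and then cultured for 6 h with 20 ng/ml IL-4 and 5 ng/ml GM-CSF (3 IL-4 arrays). Cells kept in 5 ng/ml GM-CSF alone for those 6 h gave 3 control arrays. All 6 arrays therefore come from cells under GM-CSF, a cytokine that itself signals through JAK2 and STAT5. Both groups are whole cultures and no cell type was sorted, so that fewer cells of a type and less RNA per cell cannot be told apart.

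IL-4 binds the IL-4 receptor alpha chain, encoded by *Il4ra*. The bound chain then pairs with the common gamma chain, encoded by *Il2rg*, in the type I receptor, or with the IL-13 receptor alpha 1 chain, encoded by *Il13ra1*, in the type II receptor, which also answers IL-13. JAK1 sits on the alpha chain, JAK3 on the common gamma chain, and TYK2 and JAK2 on the IL-13 receptor chain. The kinases phosphorylate the alpha chain and then STAT6, which dimerizes, enters the nucleus and binds target genes such as those of alternative activation. STAT3 is the main STAT of IL-10 and IL-6 and STAT5 that of GM-CSF. These steps run by phosphorylation of protein already present, which an RNA array does not read, so what follows is the RNA level of the machinery and not its activity.

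Levels are normalized log2 signals, in which 1 unit is a doubling, and differences are IL-4 minus control. Where a gene had several probes, its brightest by mean signal represents it. A gene was called at an adjusted p under 0.05 over all probes in limma. The fit was run without and with the replicate number as a block, since arrays of the same number deviated together. Replicate 2 stood apart on both of its arrays. The summed level of 8 tested neutrophil markers of 10 listed was 14.82 in its IL-4 array and 14.75 in its control array, against 12.75 and 12.85 in the other IL-4 arrays and 12.93 and 13.14 in the other control arrays. For 3 mast cell and basophil markers of 8 listed the sum was 11.99 and 12.12 in replicate 2, against 8.13 and 9.24 in the other IL-4 arrays and 7.84 and 9.39 in the other control arrays. The sum of 10 macrophage and monocyte markers of 12 was 12.63 to 13.09 with IL-4 and 12.76 to 13.34 in control, with replicate 2 lowest in both groups, and that of 10 conventional dendritic cell markers of 12 was 15.02 to 15.16 with IL-4 and 15.02 to 15.12 in control. *Zbtb46*, *Itgax*, *Cd74* and *H2-Ab1* of the dendritic cell list were detected on all 6 arrays, *Flt3* and *Clec9a* were not tested. Of 6 T and NK cell markers 2 were tested (sum 5.66 to 5.92 with IL-4 and 5.52 to 5.81 in control), and of 5 B cell and plasmacytoid dendritic cell markers only *Bst2* (8.73 to 9.40 with IL-4 and 8.97 to 9.63 in control). With the block, *Cxcr2* of the neutrophil list and *Batf3* and *Irf4* of the dendritic cell list were called higher with IL-4 and *Cd14* of the macrophage list lower. What part these cell types had in the values below was not tested.

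None of the 9 tested genes was called, in either fit, after 6 h with IL-4. The background was 0.123% of all 8921 tested genes without the block and 2.66% with it. At an unadjusted p under 0.05 without the block, *Stat5a* was on the higher side (4.26% of all genes were) and *Stat3* on the lower side (4.13% of all genes were). The IL-4 arrays all lay above the control arrays for 1 gene, *Stat5a* (6.29% of all genes), and all below them for *Stat3* and *Tyk2* (7.08% of all genes). The median difference of the 9 genes was -0.14, with 3 above and 6 below 0, against -0.015 over all tested genes. It was -0.27 over the 2 receptor chains, 0.040 over the 4 JAKs and -0.14 over the 3 STATs. Within replicate numbers 4 of the 9 genes differed in the same direction in all 3 pairs, as did 36.4% of all tested genes. The largest difference of a standing probe was 0.63 in size, that of *Stat3*. By the brightest probe, the interval of the difference (95%) lay within 1 log2 unit of 0 for 6 of the 9 genes without the block and for all 9 with it. A doubling or halving of the measured signal thus lies outside these blocked intervals. The second *Jak2* probe, ILMN_3115162, had a blocked interval of 0.13 to 1.005, which includes a doubling.

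**Figure D1:**
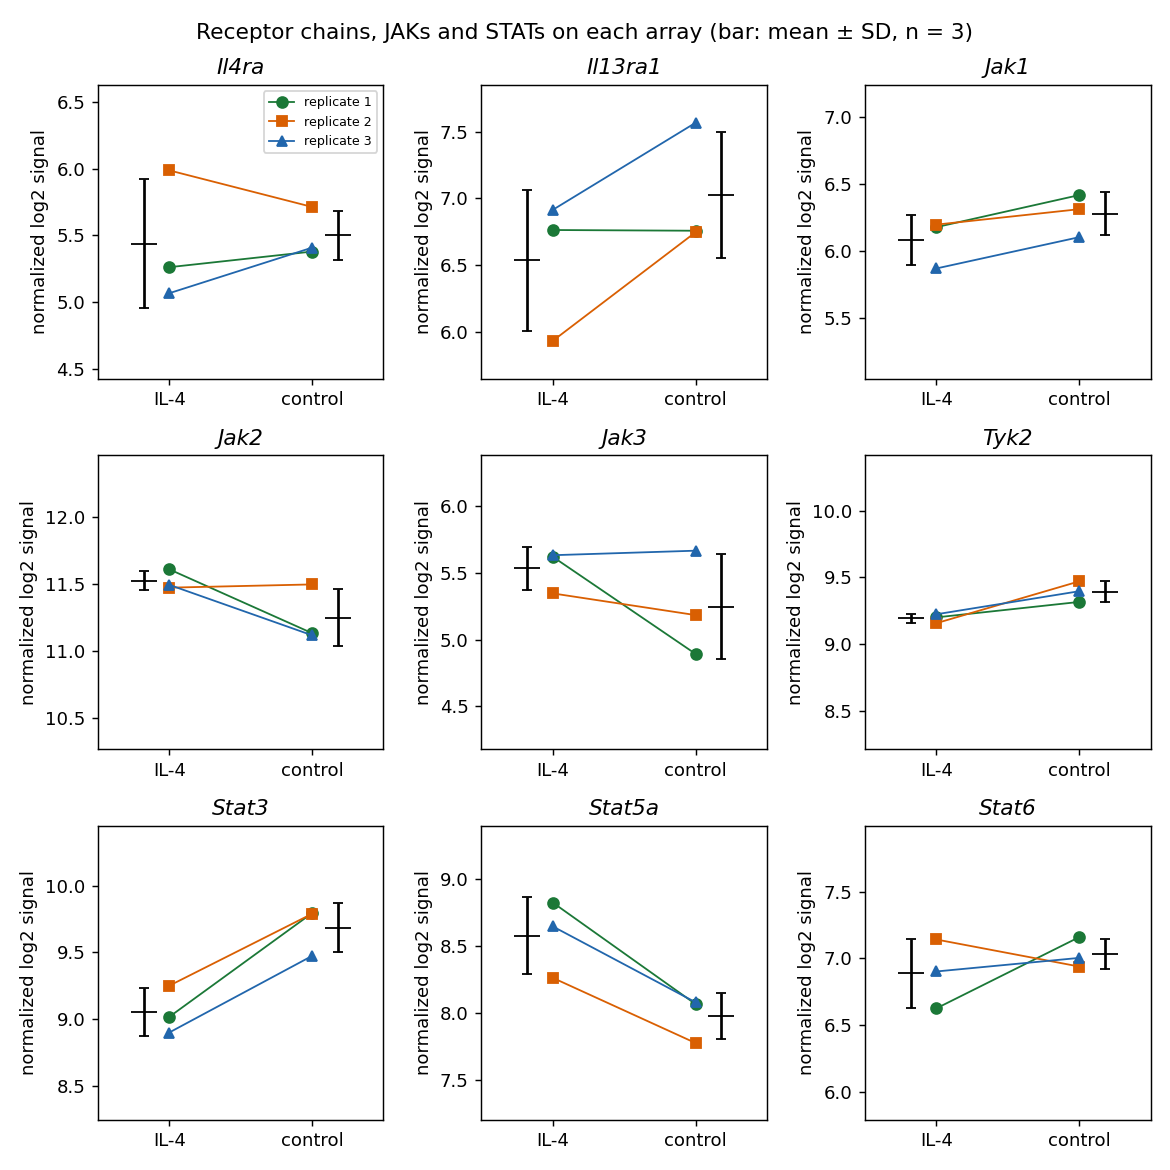
Normalized log2 signal of the brightest probe of each of the 9 tested genes on the 3 IL-4 arrays (left) and the 3 control arrays (right), with lines joining arrays of the same replicate number and bars giving mean ± SD. The IL-4 points lie all below the control points for *Stat3* and *Tyk2* and all above them for *Stat5a*, and overlap with them for the other 6 genes.

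Neither of the tested receptor chains was called. *Il4ra*, the chain that binds IL-4 and that both receptor types share, was at 5.26, 5.99 and 5.07 on the IL-4 arrays of replicates 1, 2 and 3, and at 5.38, 5.71 and 5.41 on the control arrays. The groups overlapped, and replicate 2 was highest in both. The difference was -0.062 (standard error 0.25, 95% interval -0.62 to 0.49, adjusted p = 0.990, and 0.921 with the block), with -0.12, 0.27 and -0.34 in the 3 replicate pairs. The single *Il4ra* probe was dim. Its bead signal was 120, 129 and 139 with IL-4 and 95.4, 138 and 144 in control, on arrays whose median signals were 99.5, 97.0 and 121 with IL-4 and 83.8, 103 and 118 in control. It was detected on all 6 arrays, with a highest detection p of 0.00748.

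*Il13ra1*, the second chain of the type II receptor, was at 6.76, 5.93 and 6.91 with IL-4 and at 6.76, 6.75 and 7.57 in control. The groups overlapped. Replicate 1 hardly differed, while the IL-4 arrays of replicates 2 and 3 were below their own controls. The differences within the pairs were 0.0054, -0.81 and -0.65. The mean difference of -0.49 (standard error 0.31, 95% interval -1.18 to 0.20) had an adjusted p = 0.855, and of 0.245 with the block. In the blocked fit without replicate 1, the pair that hardly differed, it was -0.73 and was called (adjusted p = 0.0298), in a fit of 2 pairs with 1 residual degree of freedom that called 348 of 16071 probes. It was -0.19 without the IL-4 array of replicate 2 (adjusted p = 0.843) and -0.22 without the control array of replicate 3 (adjusted p = 0.914). The authors' normalized values gave a difference of -0.34.

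The 4 JAKs showed no common direction. *Jak1*, the kinase of the alpha chain, was at 6.18, 6.20 and 5.87 with IL-4 and at 6.42, 6.31 and 6.10 in control, a difference of -0.20 (standard error 0.17, 95% interval -0.59 to 0.19, adjusted p = 0.929). Each IL-4 array lay below the control of its own number (-0.24, -0.12 and -0.23), although the groups overlapped. A further *Jak1* probe, ILMN_2552473, was detected on 1 control array and no IL-4 array and was not tested.

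*Jak2*, a kinase of the type II receptor and of the GM-CSF receptor, was read by 2 bright probes. Probe ILMN_1245579 was at 11.61, 11.47 and 11.49 with IL-4 and at 11.13, 11.50 and 11.12 in control. Probe ILMN_3115162 was at 10.38, 9.93 and 10.43 with IL-4 and at 9.46, 10.02 and 9.55 in control. On both probes the control arrays of replicates 1 and 3 were the lowest of the 6, while in replicate 2 the IL-4 and control arrays were nearly level. The differences within the pairs were 0.48, -0.024 and 0.38 on the first probe and 0.92, -0.087 and 0.88 on the second. Over all arrays the difference was 0.28 (standard error 0.17, adjusted p = 0.846, and 0.516 with the block) on the first and 0.57 (standard error 0.21, adjusted p = 0.580, and 0.214 with the block) on the second. Without replicate 2, the replicate with the high neutrophil and mast cell sums, the blocked fit gave 0.43 (adjusted p = 0.170) and 0.90 (adjusted p = 0.00970, called), in a fit that called 5.93% of all tested genes by their brightest probe and in which 1 residual degree of freedom was left. Whether replicates differ in their *Jak2* response was not tested.

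*Jak3*, the kinase of the common gamma chain, was read by 2 dim probes that went opposite ways. Probe ILMN_1219155 was at 5.62, 5.35 and 5.63 with IL-4 and at 4.89, 5.18 and 5.67 in control, and the groups overlapped (difference 0.29, standard error 0.22, adjusted p = 0.906). Probe ILMN_3006451 was at 4.95, 4.83 and 4.84 with IL-4 and at 5.56, 5.02 and 5.17 in control, all IL-4 arrays below all controls (difference -0.38, standard error 0.18, adjusted p = 0.732, and 0.321 with the block). The annotation gives both probes the same transcript. Their bead signals were 104 to 162 with IL-4 and 90.0 to 154 in control, near the array medians, so no direction can be given for *Jak3*. The authors' values gave 0.060 and -0.081.

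*Tyk2*, which joins *Jak2* on the IL-13 receptor chain, was at 9.20, 9.16 and 9.22 with IL-4 and at 9.32, 9.47 and 9.40 in control by its brightest probe. The IL-4 arrays were the 3 lowest, within a narrow range. The difference was -0.20 (standard error 0.15, 95% interval -0.54 to 0.14, adjusted p = 0.904, and 0.645 with the block). The 2 dimmer *Tyk2* probes lay between 5.36 and 5.99 with IL-4 and between 5.18 and 6.06 in control and gave 0.024 and 0.091.

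*Stat6*, the transcription factor that IL-4 activates, was not called. Probe ILMN_2897230 was at 6.62, 7.14 and 6.90 with IL-4 and at 7.16, 6.94 and 7.003 in control. The groups overlapped, and the pairs differed by -0.53, 0.20 and -0.10. The difference was -0.14 (standard error 0.18, 95% interval -0.55 to 0.26, adjusted p = 0.964, and 0.797 with the block). The dimmer probe ILMN_2593254, not detected on the IL-4 array of replicate 3, gave 0.0075 (95% interval -0.44 to 0.46).

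*Stat3* and *Stat5a* came nearest to a call, in opposite directions. *Stat3* was at 9.02, 9.25 and 8.90 with IL-4 and at 9.79, 9.79 and 9.47 in control by its brightest probe (mean 9.06 ± 0.18 and 9.69 ± 0.18, SD, n = 3 each). All IL-4 arrays were below all controls, and the gap was close to equal in the 3 pairs (-0.78, -0.54 and -0.57). The difference of -0.63 (standard error 0.18, 95% interval -1.03 to -0.23) had an adjusted p = 0.348, and of 0.0561 with the block (standard error 0.15). It was -0.59 in the authors' values. Probe ILMN_2589790, assigned to the same transcript, was at 8.60, 8.76 and 8.40 with IL-4 and at 9.17, 9.14 and 8.74 in control (difference -0.43, adjusted p = 0.684, and 0.223 with the block). Probe ILMN_3096144, assigned to another *Stat3* transcript, was at 6.67, 6.75 and 6.79 with IL-4 and at 6.73, 6.75 and 6.88 in control, a difference of -0.052 (95% interval -0.39 to 0.29). The 3 *Stat3* probes thus ran from -0.63 to -0.052, and whether the transcripts differ in response was not tested.

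*Stat5a*, a main STAT of GM-CSF, was at 8.83, 8.26 and 8.65 with IL-4 and at 8.07, 7.77 and 8.08 in control by its brighter probe (mean 8.58 ± 0.29 and 7.97 ± 0.17, SD, n = 3 each). All IL-4 arrays were above all controls, with 0.76, 0.49 and 0.57 in the pairs, and replicate 2 was lowest in both groups. The difference of 0.61 (standard error 0.19, 95% interval 0.17 to 1.04) had an adjusted p = 0.482, and of 0.0679 with the block (standard error 0.15). It was 0.52 in the authors' values. The dimmer probe ILMN_2976188 was at 6.56, 6.24 and 5.92 with IL-4 and at 5.74, 5.57 and 5.82 in control, again without overlap (difference 0.53, adjusted p = 0.575, and 0.179 with the block), but the pair of replicate 3 differed by 0.098 and the authors' values gave 0.26. In the blocked fit without replicate 2, *Stat3* (-0.68, adjusted p = 0.0412) and *Stat5a* (0.66, adjusted p = 0.0437) were both called. That fit of 2 pairs had 1 residual degree of freedom and called 842 of 16071 probes, and 5.93% of all tested genes by their brightest probe.

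**Figure D2:**
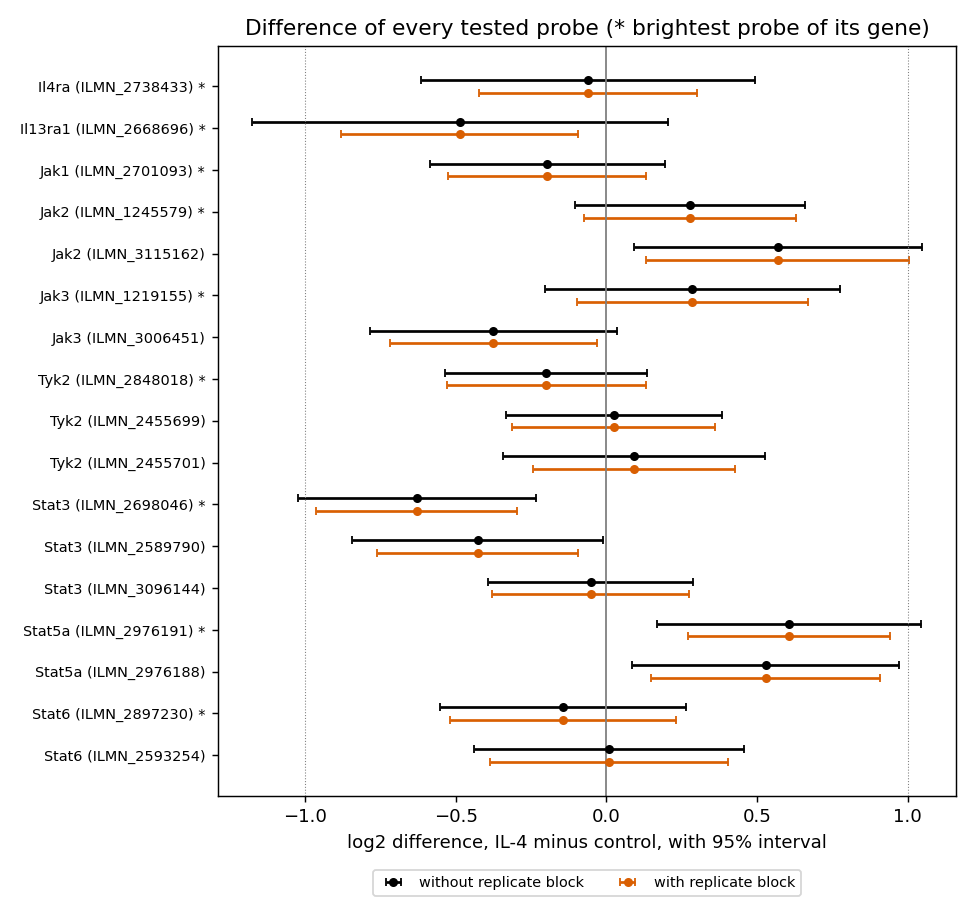
Difference of each of the 17 tested probes, IL-4 minus control in log2 units, with its 95% interval in the fit without the replicate block (black) and with it (orange), and dotted lines at 1 unit either side of 0. The brightest *Stat3* and *Stat5a* probes lie farthest from 0, at -0.63 and 0.61. The blocked interval of 16 of the 17 probes stays within the dotted lines, all but that of *Jak2* probe ILMN_3115162.

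*Stat3* and *Stat5a* are neighbours on chromosome 11, with *Stat5b* on the other side of *Stat5a*. Their promoter windows (250 bases before to 50 after each annotated start, from RefSeq on GRCm38.p6) are shown because these are the members that differed by over 0.5 units with no overlap of the arrays. They were searched for TTCNNNGAA, the palindrome that most STAT dimers bind, and for TTCNNNNGAA, the wider spacing that STAT6 prefers. Both read the same on either strand. Of the 11 windows of the 10 listed genes none held either motif, against 8.30% and 6.95% of 32851 promoter windows in the table. No match says only that these letters are not in these windows. The window of *Cish*, an inhibitor described below, is added to show what a match looks like, with its matches in capitals, and was chosen after its values were seen.
Stat3, chr11:100939491-100939790, minus strand: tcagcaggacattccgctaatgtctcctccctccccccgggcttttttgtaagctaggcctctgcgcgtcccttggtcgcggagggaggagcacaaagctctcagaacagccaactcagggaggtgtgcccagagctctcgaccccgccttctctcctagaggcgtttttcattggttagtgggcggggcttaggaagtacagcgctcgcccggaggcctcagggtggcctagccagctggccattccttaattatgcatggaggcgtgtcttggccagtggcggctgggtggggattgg
Stat5a, first start, chr11:100859406-100859705, plus strand: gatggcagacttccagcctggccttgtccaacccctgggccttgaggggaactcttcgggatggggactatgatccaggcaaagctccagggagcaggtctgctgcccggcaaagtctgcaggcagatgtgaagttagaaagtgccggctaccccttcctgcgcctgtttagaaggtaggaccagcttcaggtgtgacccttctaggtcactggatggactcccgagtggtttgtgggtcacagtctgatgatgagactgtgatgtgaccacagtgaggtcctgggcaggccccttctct
Stat5a, second start, chr11:100860234-100860533, plus strand: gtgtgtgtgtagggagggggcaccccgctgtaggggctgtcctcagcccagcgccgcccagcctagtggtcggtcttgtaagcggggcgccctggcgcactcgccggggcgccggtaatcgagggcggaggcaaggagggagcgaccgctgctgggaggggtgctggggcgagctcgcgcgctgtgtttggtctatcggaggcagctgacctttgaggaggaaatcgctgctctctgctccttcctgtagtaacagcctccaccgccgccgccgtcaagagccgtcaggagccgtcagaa
Cish, chr9:107296409-107296708, plus strand: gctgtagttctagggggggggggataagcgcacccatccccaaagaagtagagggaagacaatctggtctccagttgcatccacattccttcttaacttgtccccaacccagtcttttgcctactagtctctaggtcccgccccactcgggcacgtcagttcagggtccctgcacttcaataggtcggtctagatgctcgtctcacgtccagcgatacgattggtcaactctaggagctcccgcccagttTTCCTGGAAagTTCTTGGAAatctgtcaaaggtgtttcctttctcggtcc
The *Cish* window holds TTCNNNGAA at positions 251 and 262, counted from 1 at the 5′ end of the window. The matches lie just past the annotated start and are a description of the sequence, not of binding. A window of *Socs3* (difference -0.17, overlapping arrays) also holds TTCNNNGAA, as do those of *Il7r* (-0.020) and *Csf2rb2* (0.043), while that of *Socs1* (0.56) holds neither motif. In the pathway lists below, the wider TTCNNNNGAA is in a window each of *Snd1* (0.44, all IL-4 arrays above all controls), *Shc1* (0.18), *Inpp5d* (-0.20) and *Stat2* (0.045). The arrays of *Shc1*, *Inpp5d* and *Stat2* overlapped.

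The other genes of the pathway were read from 7 lists with 47 genes, of which 40 were tested. Without the block none was called. At an unadjusted p under 0.05, 5 of the 40 were higher and 2 lower, against 4.26% and 4.13% of all tested genes. With the block 1 was called, *Socs6*, which was higher, against 2.66% of all tested genes. This call held in some other settings of the blocked fit and was lost in others. The median difference of the 40 genes was 0.039.

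The SOCS proteins and CISH, a family of inhibitors of which cytokine signalling through STATs induces some, had the highest median of the lists. It was 0.34 over 7 tested genes of 8, with 6 above 0. *Socs6* was at 7.79, 6.71 and 8.09 with IL-4 and at 6.59, 6.32 and 6.83 in control. The groups overlapped, with replicate 2 lowest in each, and the pairs gave 1.20, 0.39 and 1.26. The difference was 0.95 (standard error 0.33, adjusted p = 0.523, and 0.0189 with the block). The blocked call was lost without background correction (0.55, adjusted p = 0.126) and without replicate 3 (0.79, adjusted p = 0.0745), in fits that called 165 and 266 of 16071 probes. It was also lost in the authors' values (0.70, adjusted p = 0.327) and without the filter on detection (adjusted p = 0.311). Those last fits called 0 of all their probes, so no gene could keep a call there. The call held without replicate 1 (0.82, adjusted p = 0.00905) and without replicate 2 (1.23, adjusted p = 0.00133), each with 1 residual degree of freedom. It also held with an intensity trend (adjusted p = 0.00796) and with an offset of 50 (0.77, adjusted p = 0.0287). Those fits called 348, 842, 515 and 431 of 16071 probes in that order. Leaving out the IL-4 array of replicate 2 gave 1.36 (adjusted p = 0.0450 in the unpaired fit). *Cish*, an inhibitor of STAT5 signalling, was at 11.74, 11.62 and 11.86 with IL-4 and at 10.90, 11.43 and 11.16 in control, all IL-4 arrays above all controls (difference 0.58, standard error 0.18, adjusted p = 0.479, and 0.127 with the block). *Socs1*, an inhibitor of JAK kinases that IL-4 is known to induce, was at 6.35, 6.17 and 6.04 with IL-4 and at 5.62, 5.74 and 5.52 in control, also without overlap (difference 0.56, standard error 0.16, adjusted p = 0.402, and 0.103 with the block). *Cish* and *Socs1* were chosen after their values were seen. In blocked fits, *Cish* was called without replicate 2 (0.77, adjusted p = 0.0226) and with an intensity trend (adjusted p = 0.0217). With the block and an offset of 50 it was not called (adjusted p = 0.0598). *Socs1* was called in no setting. *Socs3*, the inhibitor tied to STAT3, gave -0.17 and overlapped.

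Of 9 phosphatases and PIAS proteins, all tested, none was called (median -0.020). *Ptpn1*, a phosphatase of JAK2 and TYK2, stood out in the list by size and was chosen after its values were seen. It was at 8.00, 9.00 and 7.79 with IL-4 and at 9.19, 8.94 and 9.19 in control, so that it was low on the IL-4 arrays of replicates 1 and 3 and level in replicate 2, the same split of the replicates as for *Jak2*. The difference was -0.85 (standard error 0.29, adjusted p = 0.519, and 0.106 with the block). With all arrays kept, *Ptpn1* was called in the blocked fit with an intensity trend (adjusted p = 0.0350), which called 515 of 16071 probes. With the block it was not called with an offset of 50 (adjusted p = 0.113) or without background correction (adjusted p = 0.258). It was also called at -1.21 without the IL-4 array of replicate 2 (adjusted p = 0.0416). Without both arrays of replicate 2 it was called at -1.30 (adjusted p = 0.0436). These unpaired fits called 67 and 64 of 16071 probes. The blocked fit without replicate 2 (adjusted p = 9.55e-04) had 1 residual degree of freedom and called 842 of 16071 probes. Leaving out the other replicates made the difference smaller, and it was not called. It was -0.57 without replicate 3 (adjusted p = 1.00, or 0.423 in the blocked fit). Without replicate 1 it was -0.67 (adjusted p = 1.00, or 0.0808 in the blocked fit). Those unpaired fits each called 1 of 16071 probes, so almost no gene could keep a call there. The blocked fits called 266 without replicate 3 and 348 without replicate 1.

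The remaining lists held no call in the fit without or with the block. Of the STATs outside the members, *Stat2* (0.045) and *Stat4* (-0.18) were tested of 4. Of 7 other receptors that use the common gamma chain or bind IL-13, 5 were tested (median -0.12), and *Il2ra*, the alpha chain of the IL-2 receptor, had the lowest adjusted p of them in the blocked fit, though not in the unpaired fit. It was chosen after its values were seen. *Il2ra* was at 6.59, 8.00 and 6.36 with IL-4 and at 7.23, 8.75 and 6.86 in control. Each IL-4 array lay below its own control (-0.64, -0.75 and -0.51) while the replicates themselves differed by more than the groups, with replicate 2 highest (adjusted p = 0.922, and 0.0542 with the block). In blocked fits, *Il2ra* was called with an intensity trend (adjusted p = 0.0346) and with an offset of 50 (-0.52, adjusted p = 0.0340). Those fits called 515 and 431 of 16071 probes. It was not called without background correction (adjusted p = 0.103) or without replicate 2 (adjusted p = 0.0743). The 3 GM-CSF receptor chains had a median of 0.043, and *Csf2rb*, their shared signalling chain, gave 0.38 (adjusted p = 0.886). The median was 0.13 over 10 adaptors of the receptor chains, among them *Irs2*, the docking protein that the IL-4 receptor uses (0.40, adjusted p = 0.844), and -0.26 over 4 coactivators of STAT6. Both lists held genes of either direction, named here after their values were seen. Of the adaptors, *Dok2* gave 0.51 (adjusted p = 0.663, and 0.131 with the block) and *Dok1* -0.45 (0.618 and 0.249). Of the coactivators, *Snd1* gave 0.44 (0.562 and 0.226) and *Ep300* -0.36 (0.713 and 0.317). Of *Dok1*, *Dok2*, *Snd1* and *Ep300*, only *Dok2* overlapped between the groups, and *Irs2* overlapped too. Over the full lists, all IL-4 arrays lay above all controls for 0 of 10 adaptors and 1 of 4 coactivators (6.29% of all genes). They lay below all controls for 1 of 10 and 1 of 4 (7.08% of all genes).

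**Figure D3:**
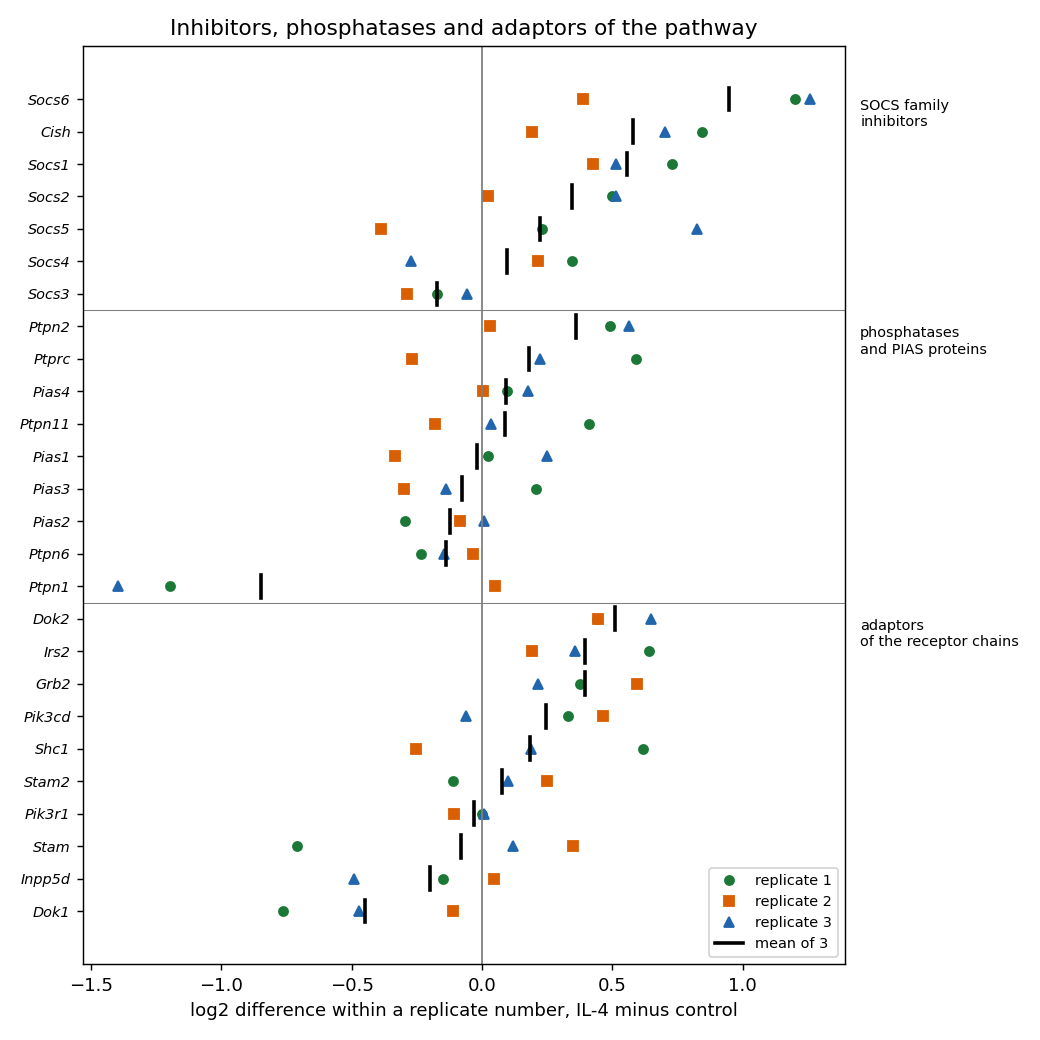
Difference between the IL-4 and control array of each replicate number, in log2 units, for the tested SOCS inhibitors, phosphatases and PIAS proteins, and adaptors, with a bar at the mean of the 3. *Socs6* at the top has its replicate 2 point at 0.39 and the others at 1.20 and 1.26, and *Ptpn1* has its replicate 2 point at 0.052 and the others at -1.20 and -1.40.

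**Figure D4:**
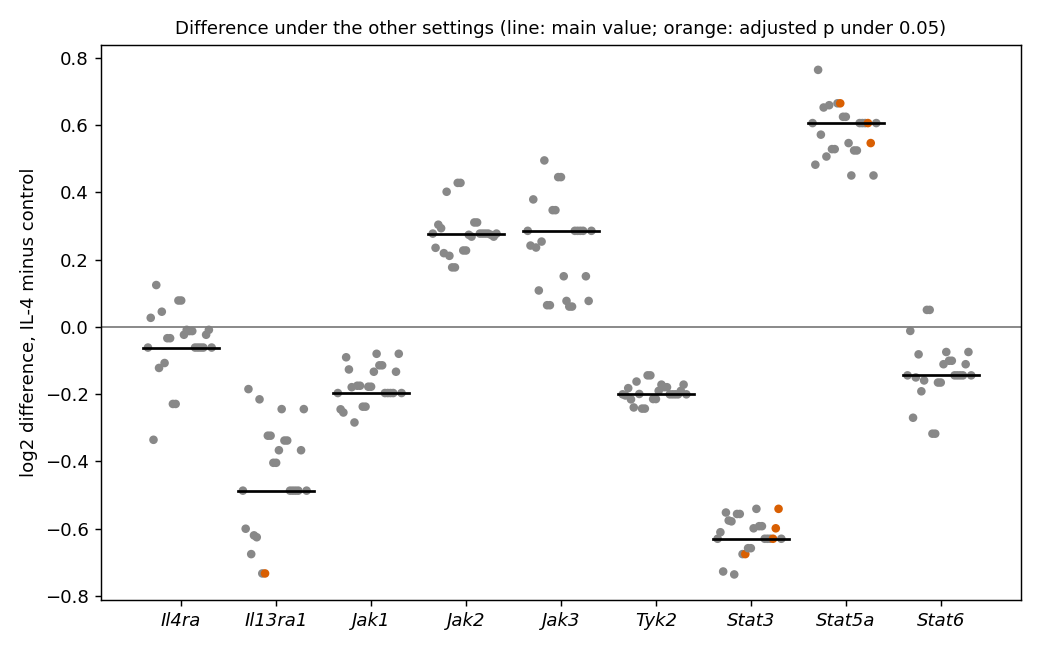
Difference of the brightest probe of each tested member, in log2 units, under the other settings of processing (1 point each), with a line at the value reported above. *Stat3* stays between -0.74 and -0.54 and *Stat5a* between 0.45 and 0.76, while the points of *Il4ra* and *Stat6* lie on both sides of 0.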

How the data were processed

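Per the labels, RNA of the BMDCs was hybridized to Illumina MouseWG-6 arrays. The authors deposited a raw bead intensity and, against the negative controls, a detection p-value for each of 45281 probes. They also deposited 19293 probes on a log2 scale, normalized in lumi by robust splines after a variance-stabilizing transform, which they tested in limma (versions not given in the sources used here).

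Here the bead signals were processed with neqc (limma 3.58.1, R 4.3.3, offset 16), a probe was kept if detected (p under 0.05) on 3 arrays or more, and lmFit and eBayes were run, two-sided, with Benjamini-Hochberg adjustment over all 16071 probes. Symbols are those of the platform annotation (16243 probes of the authors' table carry exactly 1). Between 14934 and 17185 probes were detected per array, and the number of arrays limits the precision.

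That equal replicate numbers stand for the same mouse is not stated. Deviations from the group means correlated at 0.29, 0.55 and 0.62 between arrays of equal number and at -0.55 to 0.096 between others, against a threshold of 0.1. The deviations within a group sum to 0 for each probe, so positive values at equal numbers pull the others below 0. The values at unequal numbers are thus no separate evidence. Residual degrees of freedom were 4 without the block and 2 with it.

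The members and lists were chosen with earlier results of these data known. Named were all members, up to 4 called genes of each pathway list, and others outside that rule, not all of them marked in the text. A likeness search was set for called members only, so none was run. Fits were tested on simulated data. Plots used Python 3.11.15 and matplotlib 3.10.9.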

Additional observations from a re-analysis of the deposited data

How the results depend on the processing

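By the brightest probe of each gene, the count of called members was 0 of 9 and moved only in blocked fits. It was 0 with the replicate block, 0 to 2 when arrays or whole replicates were left out (2 in the blocked fit without replicate 2, *Stat3* and *Stat5a*, and 1 without replicate 1, *Il13ra1*). Those blocked fits called 842 and 348 of all 16071 probes in that order, each with 1 residual degree of freedom. The second *Jak2* probe, ILMN_3115162, outside this count, was also called in the blocked fit without replicate 2 (0.90, adjusted p = 0.00970). The authors' values, with and without the block, called 0 of all 19293 probes, so their count of 0 members and 0 pathway genes tells nothing about these genes. The same holds for the blocked fit without the filter on detection, which called 0 of all 45281 probes. In other blocked fits added after seeing the data, the count of called members was 2 with an intensity trend, 2 with an offset of 50 (*Stat3* and *Stat5a* in both) and 1 without background correction (*Stat3*). These fits called 515, 431 and 165 of all 16071 probes in that order. The count of called pathway genes was 0 without the block, 1 with the replicate block, 0 to 3 when arrays or replicates were left out, and with the block 5 under an intensity trend, 3 with an offset of 50 and 1, not *Socs6*, without background correction, in those same fits. Over all genes the fits called 11 without and 237 with the block.

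*Il4ra* changed sign (-0.34 to 0.12 over the fits that left out arrays, 0.078 without replicate 3, with the replicate block too), as did *Stat6* (-0.32 to 0.050, the last without replicate 1). *Il13ra1* ran from -0.73 to -0.19. By the brightest probe of each gene, the direction of the other 7 members held in all settings. The second *Jak3* probe went the other way, as did the dimmer *Tyk2* probes (0.024 and 0.091). Adjusted p-values ran over 0.0119 to 1.00 for *Stat3* and 0.0260 to 1.00 for *Stat5a*. The cause of these changes was not tested. *Il4ra*, *Jak3* and the second *Stat6* probe lie near background, which limits what can be said of them.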
